A study of Mus musculus with 8 samples.

Results

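The synaptic vesicle release machinery was read here as the genes whose symbols belong to the synaptotagmin, syntaxin, syntaxin-binding, VAMP, SNAP, synapsin, SV2 and Rab3 families, together with Syp, Nsf, Cplx1 and Cplx2. The symbols were matched by pattern in a table of 24860 mouse genes, and Stx3 was set aside by the rule. Of the 62 remaining symbols, 55 had a mean of at least 1 FPKM (fragments per kilobase of gene length, scaled to the depth of the library) over the 8 libraries, and these 55 of 12858 genes at that level are the genes described below. The 7 that fell short were Syt8, Syt10, Syt17, Stx11, Stxbp6, Vamp5 and Vamp9. Syn3 was the gene just inside the limit, at 1.37 FPKM, and Vamp5 the gene just outside it, at 0.939 FPKM.

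RNA was measured in 8 mouse retina libraries, 4 from mice given AAV2-shCX36 and 4 from mice given AAV2-scramble. AAV2 is an adeno-associated virus of serotype 2, used to carry a gene into retinal neurons, and both groups received it. In AAV2-shCX36 it carried a short hairpin RNA named for the neuronal gap junction connexin that Gjd2 encodes, and in AAV2-scramble a scrambled hairpin. The series title speaks of neuroprotection and visual function after inhibition of neuronal gap junctions. The labels give the tissue as retina and the cell type as RGCs (retinal ganglion cells), and the design text says that the mice were different animals. The sources used here do not give strain, age, sex, injury, time after the virus, hairpin promoter or any cell sort. Nor do they say whether a library came from 1 mouse or from a pool, and each p-value therefore rests on the spread among these 8 libraries, which may be technical.

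Gjd2 stood at 38.7, 35.9, 17.4 and 18.2 FPKM in AAV2-scramble libraries 1 to 4 and at 17.0, 14.0, 14.6 and 16.6 FPKM in AAV2-shCX36 libraries 1 to 4. All AAV2-shCX36 values lay below all AAV2-scramble values, although scramble libraries 3 and 4 came close to them. The difference was -0.70 ± 0.25 (SE) on the log2(FPKM + 1) scale. Its adjusted p in the limma fit over all genes was 0.148, and a two-sided exact permutation test gave p = 0.0286, the smallest that 4 against 4 libraries allow. The difference was -0.19 (adjusted p = 0.245) without scramble libraries 1 and 2 and -1.21 (adjusted p = 0.00083) without scramble libraries 3 and 4. The GENCODE annotation lists the antisense gene A530058N18Rik over exons of Gjd2, and the sources used here do not state a strand setting.

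Transmitter release rests on the fusion of synaptic vesicles with the presynaptic membrane. VAMP on the vesicle and syntaxin with SNAP-25 on the membrane zip into the SNARE complex, syntaxin-binding proteins guide its assembly, complexins hold and clamp it, and synaptotagmins trigger fusion when calcium enters. Afterwards the NSF ATPase takes the complex apart. In the retina, photoreceptors and bipolar cells release glutamate from ribbon synapses, which use complexins 3 and 4 and syntaxin 3, whereas amacrine cells use the conventional machinery and ganglion cells send their axon terminals out of the eye to the brain. The name fits only part of the family list. The 16 remaining SNAREs (such as Stx7, Stx16 and Vamp4) work mostly in transport through the Golgi, endosomes and lysosomes or in exocytosis of many cell types, and Snap91 is a clathrin adaptor of vesicle endocytosis.

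Complexins carry part of the results below, and the 250 bases before a listed start site (GRCm38.p6) are shown for Cplx1, Cplx2 and Cplx3. They set a called gene that rose beside one that was not called and one that fell, 5′ to 3′ along each gene's strand. The Cplx2 stretch lies inside the RefSeq span of its gene, which begins at 54301964, and so precedes a start site farther in. Syn1, a synapsin whose promoter is widely used to drive neuronal expression, is shown for its motif matches. Its stretch ends where a Syn1 exon of another transcript begins, which left 164 bases and omitted 86. Capitals mark motif matches.
Cplx1, chr5:108550028-108550277, minus strand: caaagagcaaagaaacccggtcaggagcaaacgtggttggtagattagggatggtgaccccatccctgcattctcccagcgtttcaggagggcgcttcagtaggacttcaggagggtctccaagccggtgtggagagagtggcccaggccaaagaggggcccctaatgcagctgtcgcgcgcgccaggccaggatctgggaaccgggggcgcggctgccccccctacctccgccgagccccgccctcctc
Cplx2, chr13:54302306-54302555, plus strand: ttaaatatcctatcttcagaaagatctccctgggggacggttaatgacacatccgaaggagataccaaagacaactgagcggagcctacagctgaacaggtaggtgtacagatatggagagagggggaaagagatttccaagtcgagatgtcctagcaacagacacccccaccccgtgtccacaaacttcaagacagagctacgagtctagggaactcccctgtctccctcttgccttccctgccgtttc
Cplx3, chr9:57606282-57606531, minus strand: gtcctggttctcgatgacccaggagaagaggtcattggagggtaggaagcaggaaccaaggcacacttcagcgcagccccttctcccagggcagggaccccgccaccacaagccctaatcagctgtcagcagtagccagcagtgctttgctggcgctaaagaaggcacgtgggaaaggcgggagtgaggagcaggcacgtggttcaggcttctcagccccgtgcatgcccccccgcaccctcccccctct
Syn1, chrX:20921005-20921168, minus strand: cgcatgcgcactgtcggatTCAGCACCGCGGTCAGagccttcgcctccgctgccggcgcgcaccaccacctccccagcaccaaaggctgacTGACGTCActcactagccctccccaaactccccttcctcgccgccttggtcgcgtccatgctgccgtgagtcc

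Upstream sequence was listed for 44 of the 55 genes. The following motifs were searched on both strands in the 250 bases before the start site. The core of RE1, the element bound by the neuronal gene repressor REST, was found in Syn1 alone, against 11 of 27025 genes in all (0.0407%). It begins 231 bases before the Syn1 start site. The cyclic AMP response element TGACGTCA was found in Syn1, 159 bases before the start, and in Stxbp3, against 1.77% of all genes. CTAATCC, a form of the site of the photoreceptor factor CRX, was found in none of the 44 genes and in 2.04% of all genes. TATAAA was found in Rab3b, Stx2 and Sv2b and in 14.3% of all genes. These motifs do not overlap in the Syn1 stretch. The Cplx1 window was 64.8% G and C with 15 CpG pairs and the Cplx3 window 62.8% with 9. The Cplx2 window, which lies inside the gene span, was 50.8% with 7. The medians over all genes were 52.4% and 6.

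In all, 2 release genes were called higher in AAV2-shCX36, and none of the 55 was called lower. The called genes were the atypical synaptotagmin Syt13, up by 32.0% of its AAV2-scramble mean, and the complexin Cplx1, up by 41.9%. Called here means an adjusted p under 0.05 in the limma fit over all 12858 genes. The 2 called genes are 3.64% of the 55, beside 4.76% of all genes tested that were called in either direction, 2.24% higher and 2.52% lower. At an unadjusted p under 0.05, 12 of the 55 release genes were higher and 3 of the 55 lower. Of the 12858 genes tested, 1583 (12.3%) were higher and 1318 (10.3%) lower at that limit. In 9 of the 55 release genes every AAV2-shCX36 library lay above every AAV2-scramble library, and in 2 of the 55 every one lay below. Of the 12858 genes tested, 1138 (8.85%) lay above in this way and 907 (7.05%) below. The difference was positive for 36 and negative for 19 of the 55, with a median of 0.12 on the log2 scale beside 0.01 over all genes, and it ran from -0.63 for Vamp8 to 0.51 for Cplx1.

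**Figure D1:**
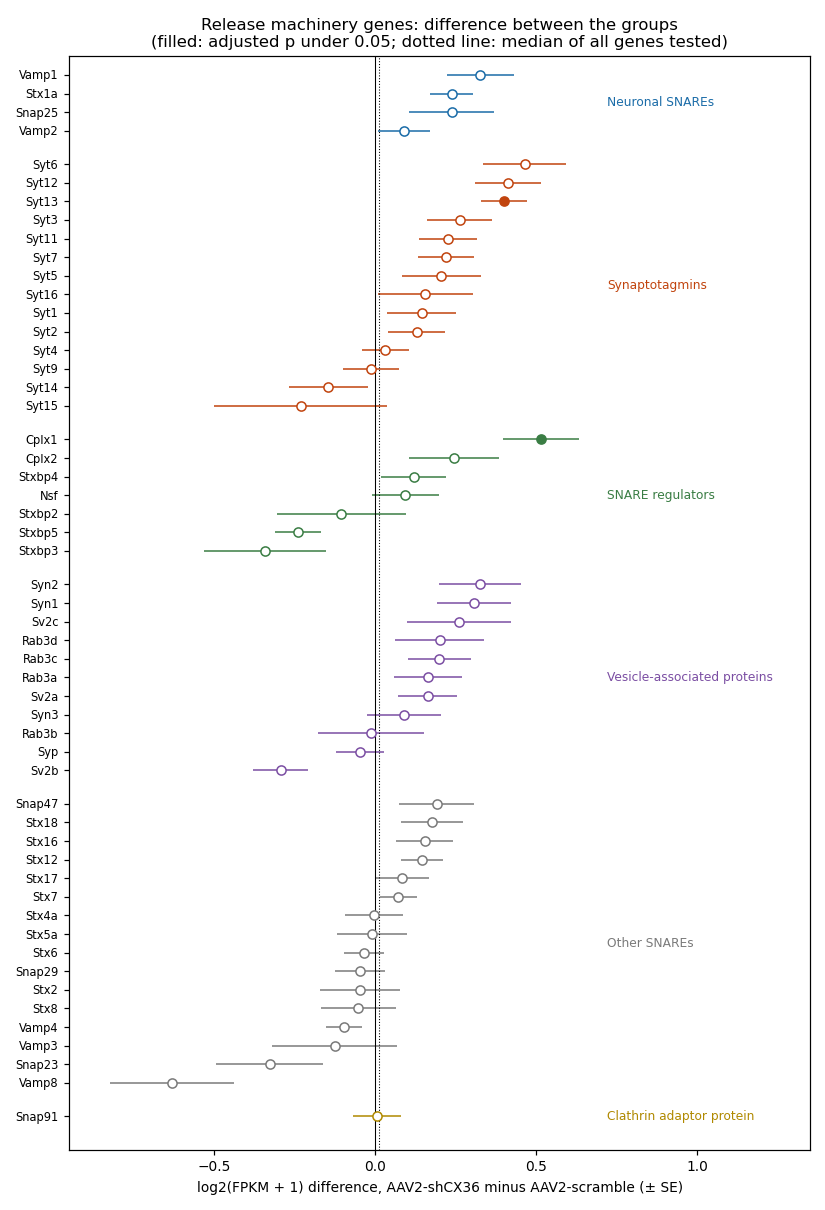
Difference in log2(FPKM + 1) between AAV2-shCX36 and AAV2-scramble (horizontal axis, points with bars of 1 standard error) for 53 release genes, grouped by role, with filled points for an adjusted p under 0.05. Cplx1 at 0.51 and Syt13 at 0.40 are the filled points, and Vamp8 at -0.63 lies farthest to the left.

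These genes span a wide range of levels. The 10 at 100 FPKM or more included, from the top, Snap25 (mean 1148 FPKM over the 8 libraries), Syp (471), Vamp2 (419), Syt1 (374), Rab3a (310.1), Nsf (225), Sv2a (205) and Syn1 (136). Another 24 genes had means of 10 to 100 FPKM and 21 had means of 1 to 10. Snap25 stood apart from the rest, its lowest library at 820.5 FPKM being above the highest library of Syp at 504 FPKM. The others named were closer: the library ranges of Syp and Vamp2, of Vamp2 and Syt1, of Syt1 and Rab3a, of Rab3a and Nsf, and of Nsf and Sv2a overlapped. The lowest library of Sv2a, at 163 FPKM, lay above the highest of Syn1, at 156 FPKM. The 55 genes summed to 4557, 3918, 4928 and 5223 FPKM in scramble libraries 1 to 4 and to 4996, 5211, 5135 and 5140.4 FPKM in shCX36 libraries 1 to 4. The sums of the groups overlapped, and scramble library 2 was the lowest.

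**Figure D2:**
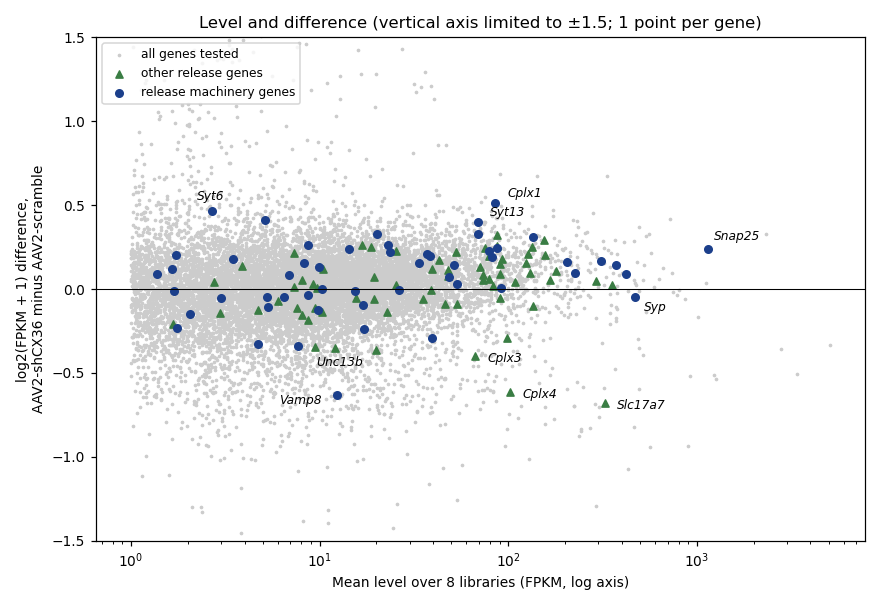
Mean level over the 8 libraries (horizontal log axis, FPKM) against the difference in log2(FPKM + 1) for all genes tested (grey), 53 release genes (blue circles) and 66 other release genes (green triangles), with 95 of the genes tested outside the vertical limits of ±1.5. The release genes drawn at 100 FPKM or more run from Syp at -0.05 to Syn1 at 0.31. Cplx4 and Slc17a7 lie lowest among the other release genes.

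Scramble library 2 held the lowest value of all 8 libraries in 32 of the 55 release genes, and in 17 of the 19 core neuronal genes, among them Snap25, Vamp2, Syt1, Cplx1, Nsf, Syp and Syn1. Scramble libraries 1 and 2 also stood apart in markers of other cells. The summed level of 7 oligodendrocyte markers was 56.7 and 180.0 FPKM in them, 11.5 and 11.6 in scramble libraries 3 and 4 and 10.6 to 12.1 in AAV2-shCX36. The 7 microglia markers summed to 564, 548, 289 and 122 FPKM in scramble libraries 1 to 4 and to 150.2 to 239 in AAV2-shCX36, and 8 bipolar cell markers to 375, 381, 85.9 and 121 against 115 to 183. The 10 ganglion cell markers summed to 1992, 1517, 2325 and 2616 FPKM in scramble libraries 1 to 4 and to 2528 to 2718 in AAV2-shCX36. Their part in the differences of the release genes was not tested. In bulk RNA, fewer cells of a type and less RNA per cell cannot be told apart.

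The RGC label does not describe the content of the libraries in full. Rod markers (8 genes) summed to 1220 to 1814 FPKM in AAV2-scramble and 790.3 to 1136 in AAV2-shCX36, with 5 called lower and none higher. Cone markers (7 genes) summed to 2890.2 to 4379 against 1654 to 2557 FPKM, with 3 called lower, and Müller glia markers (7 genes) to 532 to 910.0 against 311 to 489 FPKM, with 4 called lower. Horizontal cell markers (5 genes) summed to 117 to 125 against 70.4 to 101 FPKM, with 1 called lower. Amacrine markers (8 genes) summed to 108 to 114 against 108 to 117 FPKM, with 1 called higher and 1 lower. The amacrine gene called higher was Pax6, the largest part of that sum, at 52.7 to 58.5 against 63.8 to 67.2 FPKM. The one called lower was Tfap2b, at 15.6 to 17.2 against 9.50 to 13.1 FPKM. No list had a gene at 0 in all libraries, and 7 lens markers were highest in shCX36 libraries 1 and 4, at 150.2 and 325 FPKM, against 3.70 to 21.0 in the other 6.

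**Figure D3:**
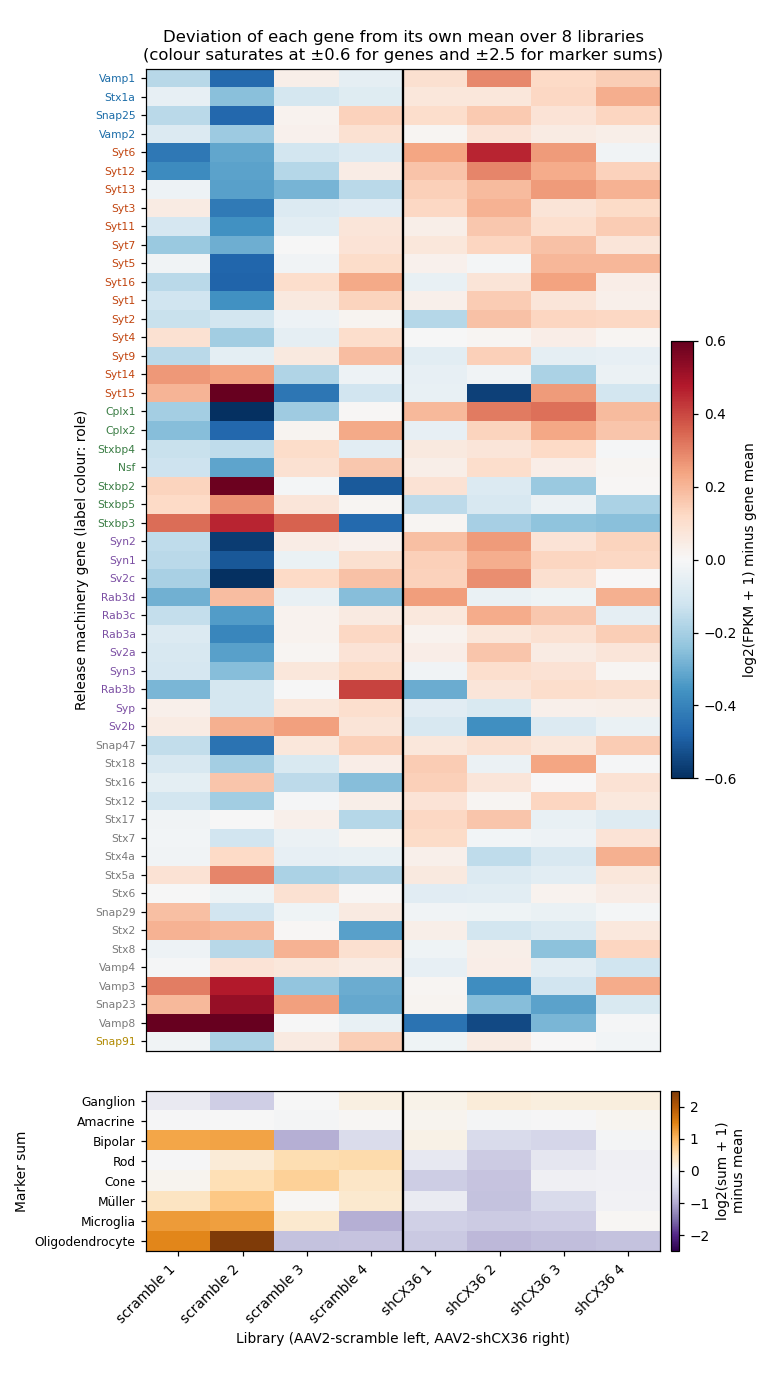
Deviation of each of 53 release genes from its own mean over 8 libraries in log2(FPKM + 1) (upper panel, colour) and of summed cell type markers (lower panel), by library, AAV2-scramble left and AAV2-shCX36 right. Scramble library 2 is blue in most neuronal genes and has the highest oligodendrocyte sum, 180.0 FPKM.

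The size of the release gene differences varied with the AAV2-scramble libraries included. Without scramble libraries 1 and 2, 3 of the 55 genes were called, Cplx1, Stx16 and Syt13, all higher, where 4.43% of all genes were called higher and 3.08% lower. The median difference of the 55 was then 0.04. Without scramble libraries 3 and 4, 22 of the 55 were called higher and 4 lower (Snap23, Stxbp3, Stxbp5 and Vamp8). Of the 12948 genes then tested, 1542 (11.9%) were called higher and 1914 (14.8%) lower. The median difference of the 55 was 0.19. These omissions were chosen after seeing the data. Syt13 and Cplx1 were called in both.

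Among the neuronal SNAREs, the fusion proteins themselves, all 5 differences were positive and none was called, with a median of 0.24. Snap25, which supplies a pair of the helices of the SNARE bundle, stood at 1016, 820.5, 1155 and 1252 FPKM in scramble libraries 1 to 4 and at 1225, 1269.8, 1206 and 1243 FPKM in shCX36 libraries 1 to 4. The groups overlapped through scramble library 4, and the difference was 0.24 ± 0.13 (SE, adjusted p = 0.315). It was 0.04 (adjusted p = 0.758) without scramble libraries 1 and 2 and 0.44 (adjusted p = 0.0288) without libraries 3 and 4.

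The groups did not overlap for Stx1a, a syntaxin of the presynaptic membrane. It stood at 13.7, 11.8, 13.1 and 13.4 FPKM in AAV2-scramble and at 14.9, 14.9, 15.5 and 16.6 FPKM in AAV2-shCX36, a difference of 0.24 ± 0.07 (SE, adjusted p = 0.0805).

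The synaptobrevins differed in size. Vamp1, a synaptobrevin prominent in the spinal cord and brainstem, stood at 60.9, 49.2, 70.0 and 65.8 FPKM in AAV2-scramble and at 73.3, 83.6, 74.5 and 75.8 FPKM in AAV2-shCX36, without overlap, a difference of 0.33 ± 0.10 (SE, adjusted p = 0.115). Vamp2, the main vesicle SNARE of the brain, stood at 396, 359, 426 and 446 against 422, 442, 433 and 429 FPKM, with overlap, a difference of 0.09 ± 0.08 (adjusted p = 0.539). Within a library the level of Vamp2 was 6.08 to 7.30 times that of Vamp1 in AAV2-scramble and 5.29 to 5.81 times in AAV2-shCX36. The ranges of this ratio did not overlap, and as it was chosen after the values were seen it is given with no test.

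The synaptotagmins, calcium sensors and their relatives, gave 1 called gene of 14, with 11 positive differences, 3 negative ones and a median of 0.18. Syt13 (RefSeq GRCm38.p6, chromosome 2, 92915101 to 92956051, protein-coding), an atypical member that lacks the residues for binding calcium, stood at 66.9, 54.3, 56.1 and 61.1 FPKM in scramble libraries 1 to 4. In shCX36 libraries 1 to 4 it stood at 75.6, 78.2, 81.8 and 79.1 FPKM. Every AAV2-shCX36 library was above every AAV2-scramble library, and the 2 groups averaged 78.7 ± 2.56 (SD, n = 4) and 59.6 ± 5.64 FPKM. The rise was 0.40 ± 0.07 (SE) on the log2 scale, with an adjusted p of 0.0195 in limma.

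The call for Syt13 depended on which library was left out. It was kept without scramble library 1, 2 or 4 (adjusted p = 0.0115, 0.0302 and 0.0246). It was lost without scramble library 3 (adjusted p = 0.0599) and without shCX36 library 1, 2, 3 or 4 (adjusted p = 0.0524, 0.0645, 0.0658 and 0.0537), with the difference between 0.36 and 0.46 in all 8 omissions. Scramble library 1 was the highest of the AAV2-scramble libraries, and the difference was 0.42 without scramble libraries 1 and 2 and 0.38 without libraries 3 and 4. Per 100 FPKM of summed ganglion cell markers, its level was 3.36, 3.58, 2.41 and 2.34 FPKM in scramble libraries 1 to 4 and 2.88 to 3.06 in AAV2-shCX36. On that scale the groups overlapped, with scramble libraries 1 and 2 above and 3 and 4 below AAV2-shCX36.

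Among scarcer synaptotagmins, 2 had differences as large, but neither was called. Syt12, another atypical member, stood at 3.66, 3.86, 4.39 and 5.25 FPKM in AAV2-scramble and at 5.83, 6.43, 6.07 and 5.68 FPKM in AAV2-shCX36, without overlap. Its difference was 0.41 ± 0.10 (SE, adjusted p = 0.0556), and 0.50 with an adjusted p of 0.020 without scramble library 4. Syt6 stood at 1.70, 1.93, 2.37 and 2.44 against 3.29, 3.99, 3.34 and 2.58 FPKM, also without overlap, a difference of 0.46 ± 0.13 (adjusted p = 0.0783). The RNA A930001C03Rik lies over exons of Syt12 on the other strand and the pseudogene Atg4a-ps over exons of Syt6.

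Another 3 synaptotagmins had an unadjusted p under 0.05. Syt3, a calcium sensor of high affinity, stood at 8.94, 6.17, 8.09 and 8.16 against 9.49, 10.1, 9.14 and 9.40 FPKM, without overlap (difference 0.26, adjusted p = 0.170). Syt7, a slow sensor of high calcium affinity, stood at 20.0, 19.0, 23.5 and 25.0 against 24.7, 25.8, 26.7 and 24.8 FPKM (difference 0.22, adjusted p = 0.183). Syt11, which does not bind calcium, stood at 73.6, 61.3, 75.5 and 83.2 against 80.9, 88.6, 84.9 and 87.8 FPKM (difference 0.23, adjusted p = 0.179). Syt7 overlapped between the groups through scramble library 4, as did Syt11.

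The fast calcium sensors of synchronous release were not called. Syt1 stood at 343, 289, 388 and 408 FPKM in AAV2-scramble and at 379.6, 414, 392 and 380.5 FPKM in AAV2-shCX36, a difference of 0.14 ± 0.11 (adjusted p = 0.459). Syt2 stood at 8.94, 9.12, 9.70 and 10.03 against 8.69, 11.3, 10.9 and 10.9 FPKM, a difference of 0.13 ± 0.09 (adjusted p = 0.414), and shCX36 library 1 was the lowest of all. At the lower end of the family, Syt15, which does not bind calcium, ranged from 0.951 to 3.61 FPKM in AAV2-scramble and from 0.785 to 2.15 FPKM in AAV2-shCX36, a difference of -0.23 ± 0.27 (adjusted p = 0.647).

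The SNARE regulators gave 1 called gene of 8, with a median of 0.06. Cplx1 (GRCm38.p6, chromosome 5, 108518554 to 108550027, protein-coding), a complexin of conventional synapses, stood at 72.1, 53.9, 71.5 and 83.4 FPKM in scramble libraries 1 to 4 and at 95.1, 103, 105 and 95.0 FPKM in shCX36 libraries 1 to 4. The groups did not overlap, and scramble library 2 was the lowest and library 4 the nearest to AAV2-shCX36. The means were 70.2 ± 12.2 and 99.6 ± 5.29 FPKM (SD, n = 4), a rise of 0.51 ± 0.12 (SE) on the log2 scale with an adjusted p of 0.0434 in limma.

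The Cplx1 call was lost in 6 of the 8 omissions of 1 library. The adjusted p was 0.0790 and 0.0906 without scramble library 1 or 3 and 0.101, 0.129, 0.118 and 0.0866 without shCX36 library 1, 2, 3 or 4, and it stayed below the threshold without scramble library 2 (0.0281) or 4 (0.0204). The difference was 0.36 without scramble libraries 1 and 2 and 0.67 without libraries 3 and 4. Per 100 FPKM of summed ganglion cell markers, Cplx1 was 3.07 to 3.62 FPKM in AAV2-scramble and 3.60 to 3.93 FPKM in AAV2-shCX36, where the groups overlapped by a narrow margin.

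**Figure D4:**
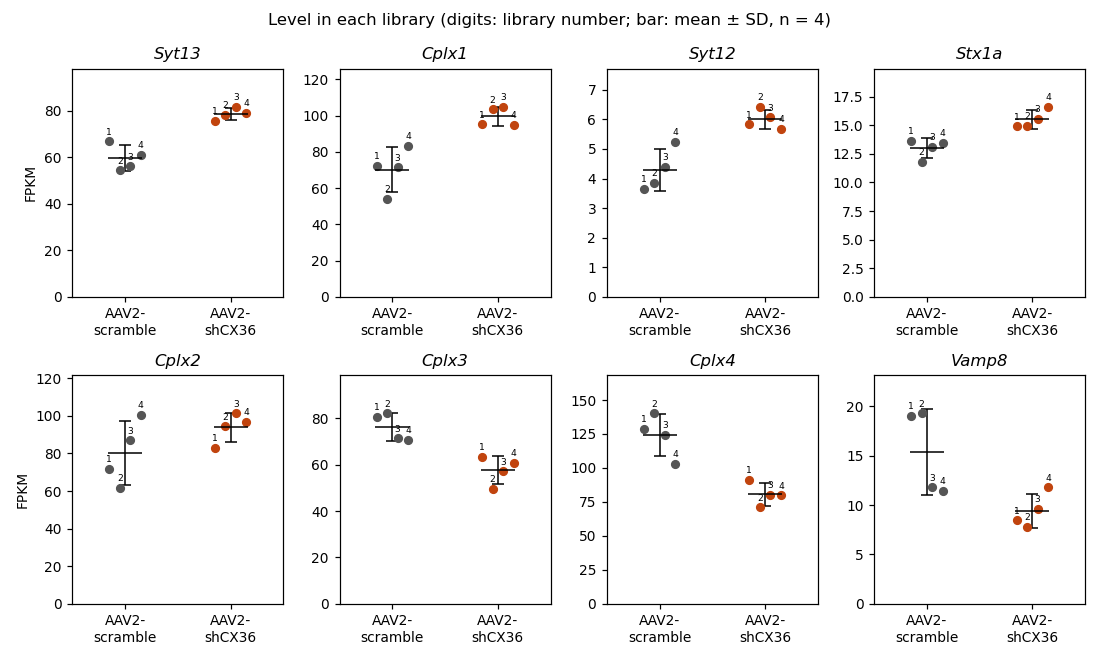
Level in each library (vertical axes in FPKM from 0, digits for the library number, bars for mean ± SD, n = 4) of 8 genes in AAV2-scramble (grey) and AAV2-shCX36 (orange). Syt13 and Cplx1 are higher and Cplx3 and Cplx4 lower in every AAV2-shCX36 library, while Cplx2 and Vamp8 overlap between the groups.

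The complexins were unequal. Cplx2 was at 71.8, 61.7, 86.9 and 101 FPKM in AAV2-scramble and at 83.1, 94.5, 101 and 96.8 FPKM in AAV2-shCX36. The groups overlapped widely, and the difference was 0.24 ± 0.14 (SE, adjusted p = 0.333). The ribbon synapse complexins, which the gene rule does not include, went the other way. Cplx3 stood at 80.6, 82.1, 71.3 and 70.7 against 63.3, 49.5, 57.1 and 60.97 FPKM and fell by 0.40 on the log2 scale (adjusted p = 0.0401). Cplx4 stood at 129, 140.1, 124 and 103 against 91.5, 71.0, 79.9 and 79.9 FPKM and fell by 0.61 (adjusted p = 0.0166). Both were lower in every AAV2-shCX36 library.

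Ratios within a library do not depend on how the library was scaled. Cplx1 was 0.656 to 1.18 times Cplx3 in AAV2-scramble and 1.503 to 2.09 times in AAV2-shCX36, and 0.385 to 0.810 times Cplx4 against 1.04 to 1.46 times. Neither range overlapped between the groups. Cplx1 was 0.822 to 1.00 times Cplx2 in AAV2-scramble and 0.982 to 1.14 times in AAV2-shCX36, with overlap. The ratios were chosen after the values were seen and carry no test. Ribbon synapses belong to photoreceptors and bipolar cells. Rod and cone marker sums were lower in the same AAV2-shCX36 libraries. Bipolar marker sums overlapped, at 375, 381, 85.9 and 121 FPKM in scramble libraries 1 to 4 and 115 to 183 in AAV2-shCX36. The part of these cells in the ratios was not tested.

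The other SNARE regulators were not called. Nsf, the ATPase that takes SNARE complexes apart, stood at 205, 179.6, 239 and 251 against 229.6, 241, 230.1 and 226 FPKM, a difference of 0.09 ± 0.10 (adjusted p = 0.625). The AAV2-shCX36 libraries lay within the range of AAV2-scramble.

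Stxbp5 encodes tomosyn, which inhibits SNARE assembly. It stood at 18.6, 20.8, 18.0 and 17.1 FPKM in AAV2-scramble and at 15.2, 15.9, 16.6 and 14.8 FPKM in AAV2-shCX36, lower without overlap, a difference of -0.24 ± 0.07 (SE, adjusted p = 0.0967). Stxbp3, a syntaxin-binding protein of most tissues, stood at 9.73, 10.7, 9.88 and 5.15 against 7.57, 6.39, 6.20 and 6.14 FPKM. Scramble library 4 was below all others, and the difference was -0.34 ± 0.19 (adjusted p = 0.316) with it and had an adjusted p of 0.0164 without it.

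The 11 vesicle-associated proteins gave no called gene, with 8 positive and 3 negative differences and a median of 0.16. Synapsins tether vesicles in the reserve pool. Syn1 stood at 119.8, 94.1, 131 and 143 FPKM in AAV2-scramble and at 148, 156, 147 and 147 FPKM in AAV2-shCX36, without overlap, a difference of 0.31 ± 0.12 (SE, adjusted p = 0.163). Syn2 stood at 17.8, 13.1, 20.6 and 20.2 against 22.7, 23.98, 21.1 and 21.9 FPKM, also without overlap, a difference of 0.33 ± 0.13 (adjusted p = 0.176). Syn3, the scarcest gene of all 55, stood at 1.202, 0.975, 1.47 and 1.55 against 1.33, 1.54, 1.51 and 1.38 FPKM (difference 0.09, adjusted p = 0.682).

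Each synapsin shares exons with a gene on the other strand, Syn1 with Araf, Syn2 with Timp4 and Syn3 with Timp3. In all, GENCODE lists exons of another gene over those of 18 of the 55 release genes, but none over Syt13, Cplx1, Cplx2, Snap25 or Stx1a. Without strand, reads from such a gene and its partner cannot be told apart.

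The SV2 transporter-like glycoproteins of the vesicle membrane were unequal. Sv2a stood at 191, 163, 206 and 217 FPKM in AAV2-scramble and at 209.8, 229, 211 and 215 FPKM in AAV2-shCX36 (difference 0.16 ± 0.09, adjusted p = 0.319), and Sv2c at 19.7, 14.4, 24.8 and 25.8 against 25.1, 27.8, 24.4 and 22.8 FPKM (difference 0.26 ± 0.16, adjusted p = 0.368). Both overlapped between the groups. Sv2b, the form known from photoreceptor terminals, stood at 40.4, 45.4, 46.5 and 41.3 against 36.5, 30.0, 36.8 and 38.0 FPKM, lower without overlap, a difference of -0.29 ± 0.08 (adjusted p = 0.0863), and shares exon sequence with 1500012K07Rik on the other strand. Sv2a was 3.58 to 5.24 times Sv2b in AAV2-scramble and 5.66 to 7.64 times in AAV2-shCX36, a ratio chosen after its values were seen.

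Rab3a, the vesicle GTPase that binds the active zone, stood at 291, 235, 313 and 336 FPKM in AAV2-scramble and at 313, 323, 329 and 341 FPKM in AAV2-shCX36 (difference 0.16 ± 0.11, adjusted p = 0.393). Synaptophysin, Syp, an abundant vesicle membrane protein of ribbon and conventional terminals alike, stood at 481, 437, 494 and 504 against 449, 441, 481 and 481 FPKM (difference -0.05 ± 0.07, adjusted p = 0.751). Both overlapped, and scramble library 2 was the lowest of the 8 in each.

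The 16 SNAREs of other membranes gave no called gene, 6 positive and 10 negative differences and a median of -0.02. Snap47 was the most abundant, at 72.9, 59.2, 84.8 and 89.6 FPKM in AAV2-scramble and 84.9, 86.5, 84.9 and 90.0 FPKM in AAV2-shCX36, and had the largest positive difference of the 16, 0.19 ± 0.12 (adjusted p = 0.362). Vamp8, a SNARE of lysosomal fusion and of secretion outside neurons, stood at 19.1, 19.3, 11.8 and 11.5 FPKM in scramble libraries 1 to 4 and at 8.44, 7.82, 9.63 and 11.8 FPKM in shCX36 libraries 1 to 4. Scramble libraries 1 and 2 were the high ones. Scramble library 3, at 11.81 FPKM, lay just above the highest AAV2-shCX36 library, at 11.78 FPKM, and scramble library 4 lay below it. The difference of -0.63 ± 0.19 (SE) had an adjusted p of 0.1005, and was -0.29 (adjusted p = 0.242) without scramble libraries 1 and 2. It was -0.97 (adjusted p = 0.0037) without scramble libraries 3 and 4 and -0.75 (adjusted p = 0.0441) without library 4 alone. Scramble libraries 1 and 2 were also the libraries with the highest microglia sums, 564 and 548 FPKM, whose part in Vamp8 was not tested.

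The clathrin adaptor Snap91, called AP180, stood at 90.1, 80.0, 95.1 and 101 FPKM in AAV2-scramble and at 89.7, 94.7, 91.7 and 90.3 FPKM in AAV2-shCX36. The difference was 0.01 ± 0.07 (SE, adjusted p = 0.977), with every AAV2-shCX36 library inside the range of AAV2-scramble.

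Beyond the family list, 66 of 67 other genes of the release cycle were tested. None was called higher and 4 were called lower (6.06% of them), where 2.24% of all genes tested were called higher and 2.52% lower. Of the 66 differences 41 were positive and 25 negative, and the median was 0.05, beside 0.01 over all genes. Among 17 active zone genes, which dock and prime vesicles, 1 was called, and among 13 further release regulators the complexins Cplx3 and Cplx4. Of 15 vesicle membrane genes 1 was called and of 21 endocytosis genes none.

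The called active zone gene was Unc13b, a Munc13 priming factor, at 12.7, 15.7, 13.7 and 12.4 FPKM in AAV2-scramble and 10.3, 9.78, 11.3 and 10.4 FPKM in AAV2-shCX36. It fell by 0.35 on the log2 scale (adjusted p = 0.0484), without overlap. The called vesicle membrane gene was Slc17a7, the glutamate transporter that loads vesicles in photoreceptors and bipolar cells, at 374, 437, 415 and 368 FPKM in AAV2-scramble and 247, 201, 267 and 285 FPKM in AAV2-shCX36. It fell by 0.68 (adjusted p = 0.0148), also without overlap. The ganglion cell form Slc17a6, which is also one of the 10 ganglion cell markers, stood at 71.7, 57.1, 91.2 and 100.2 against 88.1, 96.6, 100.3 and 90.2 FPKM (difference 0.26, adjusted p = 0.359). It was 0.130 to 0.272 times Slc17a7 in AAV2-scramble and 0.317 to 0.480 times in AAV2-shCX36, again with no test.

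These calls depended on single libraries to unequal degrees. Unc13b and Cplx3 kept theirs in 1 of the 8 omissions of 1 library, that of scramble library 4 (adjusted p = 0.0330 and 0.0328). Without the others, scramble 1, 2 and 3 and then shCX36 1 to 4, Unc13b had 0.0693, 0.0664, 0.104, 0.134, 0.149, 0.0834 and 0.109, and Cplx3 had 0.0917, 0.0721, 0.0710, 0.0669, 0.0982, 0.104 and 0.0730. Cplx4 kept its call in 5 omissions and lost it without scramble library 3 (adjusted p = 0.0523) and shCX36 libraries 2 (0.0576) and 3 (0.0573), and Slc17a7 kept it in 6 and lost it without scramble library 3 (0.0509) and shCX36 library 1 (0.0524). Stx3, the ribbon synapse syntaxin that the gene rule leaves out, averaged 47.6 ± 5.84 FPKM in AAV2-scramble and 31.3 ± 3.2 FPKM in AAV2-shCX36 (SD, n = 4) and fell by 0.59 (adjusted p = 0.0163). It kept its call in all 8 omissions of 1 library, with adjusted p-values of 0.0164 to 0.0483, and lost it with shCX36 libraries 1 and 4 left out (0.1003) and with the replicate number as a block (0.0948). It is named here after its values were seen.

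A further 4 genes were among the smallest p-values of their lists without being called. The liprin Ppfia4 of the active zone stood at 19.0, 15.7, 17.2 and 16.2 against 20.3, 21.9, 19.7 and 19.6 FPKM (difference 0.25, adjusted p = 0.0858). The proton pump subunit Atp6v0a1 stood at 115, 113, 116 and 125 against 134, 146, 131 and 132 FPKM (difference 0.21, adjusted p = 0.0886). Of the clathrin adaptor AP2, the subunit Ap2a1 stood at 65.0, 61.7, 72.8 and 77.5 against 81.1, 81.8, 83.9 and 80.8 FPKM (difference 0.24, adjusted p = 0.103). The subunit Ap2m1 stood at 119.9, 104, 127 and 138.7 against 138.9, 149, 142 and 152 FPKM (difference 0.25, adjusted p = 0.140). Fuz lies over exons of Ap2a1 on the other strand. In all 4 genes every AAV2-shCX36 library lay above every AAV2-scramble library, as in 8.85% of all genes tested. The smallest uncalled p of the release regulators belonged to Doc2b, a calcium-binding protein of spontaneous release, which is named after its values were seen. It stood at 19.1, 25.4, 24.6 and 21.3 FPKM in AAV2-scramble and at 16.1, 14.5, 20.7 and 18.1 FPKM in AAV2-shCX36, with overlap, a difference of -0.36 ± 0.12 (SE, adjusted p = 0.126).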

How the data were processed

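Total RNA from 8 mouse retina libraries was sequenced as 150-base paired-end reads, per the labels' protocols. The authors deposited FPKM values per gene. The submitters' processing notes name fastp, HISAT2, HTSeq, R 3.2.0 and DESeq2 and the builds GRCm38 and mm10, with no role or order; the strand setting and gene lengths are not given in the sources used here. No counts were used. Depth was estimated only roughly, from the step between low values of genes with 1 exon, at 35800000 to 38900000 fragments per library, so no counting interval is given.

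In the 12858 genes averaging 1 FPKM or more, log2(FPKM + 1) was compared between AAV2-shCX36 (4 libraries) and AAV2-scramble (4) with limma 3.58.1 (lmFit, eBayes with trend, R 4.3.3) and Benjamini-Hochberg adjustment over all of them. Called means an adjusted p under 0.05. A fold on this scale understates the change of low genes. The script was tested on simulated data. Single-library values are FPKM, and differences are on the log2 scale.

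The genes and lists were chosen with earlier results of these data known. Named genes were Gjd2, release genes with an adjusted or unadjusted p under 0.05, 19 core neuronal genes, the most abundant and most extreme gene of each role, the genes beside the 1 FPKM limit, and called or lowest-p genes of the other lists. In all, 18 planned and 3 added alternatives were run. Symbols were matched to RefSeq GRCm38.p6 for positions, to GENCODE for exon overlap and to a list of GRCm38.p6 start sites for upstream sequence. Positions were found for all 55 release genes. Of the 55, 2 are included in the counts but are not reported here.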

Additional observations from a re-analysis of the deposited data

Results flagged for a closer look

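In 64 genes, the 4 libraries of each group were examined for a library whose gap to its nearest neighbour took a share of the group's range above Dixon's 95% critical value. Chance alone flags about 1 in 20 groups, and 6 of 128 groups met the criterion. In AAV2-shCX36, library 1 held the lowest Rab3b value, 1.16 FPKM against 1.79 to 1.87 in the other 3, and the lowest Syt2 value, 8.69 against 10.9 to 11.3 FPKM. Library 2 of that group held the highest Syn1 value, 156 against 147 to 148 FPKM, and the highest Syt9 value, 17.1 against 14.7 to 14.8 FPKM. In AAV2-scramble, library 2 held the highest Stx4a value, 11.2 against 9.87 to 10.1 FPKM, and library 4 the lowest Stxbp3 value, 5.15 against 9.73 to 10.7 FPKM.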

How the results depend on the processing

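Across 18 planned and 3 added alternatives, 6 called genes (Syt13, Cplx1, Cplx3, Cplx4, Slc17a7 and Unc13b) and Stx3, which the rule for named genes does not cover, kept their direction. Of the 34 uncalled genes under that rule, 10 changed sign and 24 passed the threshold in at least 1 alternative. All 24 passed without scramble libraries 3 and 4, an omission chosen after seeing the data. Ap2a1, Ap2m1, Atp6v0a1, Stxbp3, Syt12 and Vamp8 also passed without scramble library 4, and Syt12 with library weights. The rest passed in no other alternative. The release genes called higher numbered 1 (Syt13) without a filter on low values, with median-of-ratios scaling and without the variance trend, where Cplx1 had adjusted p-values of 0.0966, 0.0719 and 0.0588. The other release genes called lower numbered 1 without the filter and 2 without the trend, and all genes 177 higher and 134 lower without the filter. Without scramble libraries 1 and 2, 565 genes of the table were called higher. Without scramble libraries 3 and 4, 22 release genes were called higher and 4 lower, 15 other release genes higher and 9 lower, and 1542 genes of the table higher and 1914 lower. Without shCX36 libraries 1 and 4, no release gene was called higher and no other one lower (0 and 0), beside 68 higher and 28 lower in the table. These double omissions were added after seeing the data and leave fewer samples. Omitting 1 library at a time gave 0 to 3 release genes higher and 0 to 3 lower, 0 to 3 other release genes higher and 0 to 4 lower, and 96 to 575 genes of the table higher and 70 to 591 lower.

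Whether the replicate numbers pair the libraries is not known here. Deviations of same-numbered libraries correlated at 0.128, -0.302, 0.226 and -0.269, which cannot settle it without the same values for differently numbered libraries. With the replicate number as a block, 0 release genes were called higher and 0 other ones lower, and 107 genes of the table higher and 57 lower. Syt13 then had an adjusted p of 0.0875 and Cplx1 of 0.119. The cause of these shifts was not tested. Depth limits the genes near 1 FPKM most.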

Other observations

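Of the 7 family members below 1 FPKM, Syt10, a synaptotagmin known from neuropeptide and growth factor secretion, was listed at 0.242 to 0.348 FPKM in AAV2-scramble and at 0.0714 to 0.131 FPKM in AAV2-shCX36, without overlap. It was chosen after its values were seen and was not tested, and at this level a value rests on few fragments. The ratios of Syn1 to Syn2 (6.35 to 7.18 in AAV2-scramble and 6.51 to 6.95 in AAV2-shCX36) and of Syt1 to Syt2 (31.7 to 40.7 and 34.8 to 43.7) overlapped between the groups. Snap25 took 20.9% to 23.97% of the summed FPKM of the 55 release genes in AAV2-scramble and 23.5% to 24.5% in AAV2-shCX36.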
